A study of Mus musculus with 10 samples.

Results

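Microglia are the resident macrophages of the brain, and 10 of their marker genes were followed across cerebellum and medulloblastoma of Ptch heterozygous mice. The genes were listed by name, with earlier results of these data known: Aif1, Cx3cr1, P2ry12, Tmem119, Csf1r, C1qa, C1qb, C1qc, Trem2 and Tyrobp. All 10 were found among the 39769 gene symbols measured, and all 10 were among the 15617 genes with counts high enough to test. Gene-level RNA counts came from 10 libraries of bulk tissue in 3 groups, and every animal carried 1 intact copy of Ptch1 (Ptch+/-), which predisposes mice to medulloblastoma, a tumour of the cerebellum. The AKP group holds 3 libraries of medulloblastoma from AtohI-Cre Kmt2dfl/+ Ptch+/- mice (the label's spelling of the Atoh1 driver, active in granule neuron precursors), of which the first and second came from mice aged 2 months and the third from a mouse aged 4 months. The NKP group holds 3 libraries of medulloblastoma from Nestin-Cre Kmt2dfl/+ Ptch+/- mice, with a driver active in neural stem and progenitor cells, all at 4 months. The Ptch group holds 4 libraries of Ptch+/- cerebellum, the controls, the first and second at 4 months of age and the others at 2 months. The study asked how loss of 1 copy of the histone methyltransferase gene Kmt2d alters expression in Ptch-driven tumours. No group carried a Cre or the floxed allele alone, and tumour tissue was set against cerebellum, so driver, Kmt2d allele and tumour cannot be told apart. The labels do not state whether replicates are separate animals. Libraries of a group that differ in labelled age or sex would be, if those labels hold. The p-values here weigh a difference between groups against the spread of libraries within a group, which may be technical.

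Microglia arise from yolk sac precursors, settle in the brain before birth and depend on signalling through the receptor Csf1r for survival. They scan the tissue with fine processes, clear dying cells and synapses, and make the C1q protein that starts the classical complement cascade. On activation, as in damaged or tumour tissue, mouse microglia lower homeostatic genes such as P2ry12, Tmem119 and Cx3cr1 and raise a programme that runs through the receptor Trem2 and its adaptor Tyrobp. Macrophages that enter from blood share Csf1r, Aif1, C1q, Trem2 and Tyrobp with microglia, whereas P2ry12 and Tmem119 are much more restricted to microglia. In bulk tissue, fewer cells of a type and less RNA per cell cannot be told apart.

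C1qa, C1qb and C1qc lie next to each other on mouse chromosome 4 on the minus strand, between 136880129 and 136898803 (GRCm38). Spi1 (PU.1), a transcription factor that the myeloid lineage needs, binds purine-rich DNA. The 250 bases before the annotated start were searched for the purine-rich hexamer GAGGAA on both strands, where it reads TTCCTC on the other strand. RefSeq promoter sequences of GRCm38.p6 were searched for 6 of the genes (Aif1, Cx3cr1, P2ry12, C1qb, C1qc and Trem2). Of these 6, 4 held the hexamer (Aif1, C1qb, C1qc and Trem2), against 23.3% of all 32851 promoters in that set. Some windows are not wholly upstream of their gene, since 16 of the 250 bases in Aif1, 151 in C1qc and all 250 in Cx3cr1 lie in exons that GENCODE annotates for the same gene. The hexamer of Aif1 touches such an exon and that of C1qc does not. C1qa, Tmem119 and Tyrobp had no promoter sequence to search. Csf1r was left out of the search by choice, so the count of 4 in 6 does not cover it. The windows of C1qb and Trem2, which were high in the same libraries, are printed with that of P2ry12, which ran the other way. Capitals mark the hexamer, which begins 30 bases before the start in C1qb (chr4:136886201-136886450, minus strand) and 40 bases before it in Trem2 (chr17:48346151-48346400, plus strand). The window of P2ry12 (chr3:59262986-59263235, minus strand) held no match, which says only that these letters are not in it.
C1qb: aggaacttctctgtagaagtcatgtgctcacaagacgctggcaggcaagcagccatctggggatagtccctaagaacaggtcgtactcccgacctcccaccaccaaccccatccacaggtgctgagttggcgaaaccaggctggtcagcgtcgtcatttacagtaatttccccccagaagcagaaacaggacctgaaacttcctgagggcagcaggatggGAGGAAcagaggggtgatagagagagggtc
Trem2: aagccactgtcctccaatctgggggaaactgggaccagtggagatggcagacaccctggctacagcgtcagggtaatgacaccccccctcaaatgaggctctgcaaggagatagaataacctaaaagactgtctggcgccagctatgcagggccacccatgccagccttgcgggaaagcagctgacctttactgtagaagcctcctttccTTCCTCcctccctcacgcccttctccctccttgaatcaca
P2ry12: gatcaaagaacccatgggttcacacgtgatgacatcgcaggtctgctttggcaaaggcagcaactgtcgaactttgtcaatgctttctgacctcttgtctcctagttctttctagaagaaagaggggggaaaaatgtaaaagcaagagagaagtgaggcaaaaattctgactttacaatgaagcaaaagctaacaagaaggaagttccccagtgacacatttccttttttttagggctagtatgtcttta

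Library totals ran from 12300430 counts in Ptch 1 to 19348991 in Ptch 3. Levels are CPM, counts scaled to a common library size by edgeR's TMM factors. The library labels were checked in several respects, and some were not borne out. Kmt2d, the floxed gene, stood at 34.3, 41.3 and 43.6 CPM in AKP 1 to 3, at 33.2, 46.9 and 58.0 CPM in NKP 1 to 3 and at 52.6 to 68.4 CPM in Ptch, with log2 fold changes against Ptch of -0.56 for AKP (edgeR adjusted p = 0.0650) and -0.34 for NKP (adjusted p = 0.307). Every AKP library lay below every Ptch library for Kmt2d, in the direction of the label, as for 12% of all genes. NKP 3, however, lay within the Ptch range. Over 24 alternative analyses the log2 fold change of Kmt2d against Ptch ran from -0.63 to -0.12 for AKP and from -0.54 to -0.0042 for NKP. Counts are per gene, so the floxed exons could not be read separately. The 8 mitosis genes examined, which should mark a growing tumour, summed to 4.19, 183 and 145 CPM in AKP 1 to 3 and to 6.13, 3.92 and 39.9 CPM in NKP 1 to 3, but to 290.0, 291, 95.6 and 88.7 CPM in Ptch 1 to 4. The precursor and SHH medulloblastoma gene Atoh1 was listed at 0 in AKP 1 and NKP 1 and at 14.8 and 16.4 CPM in Ptch 1 and Ptch 2. The sum of 4 Y-linked genes did not match the labelled sex in AKP 3, NKP 3, Ptch 1 and Ptch 3. These are 4 of the 10 libraries, and Xist was not part of that rule. NKP 2, labelled male, had both Xist (74.8 CPM) and the Y-linked genes (68.4 CPM). Xist was also at 15.0 CPM in AKP 1 and 11.9 CPM in NKP 1, both labelled male. It was at 0.433 CPM in AKP 2 and 0.444 CPM in Ptch 4, also labelled male. Groups are therefore called by their labels below, and no library was moved.

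The 3 AKP libraries differed widely from each other in most of the 10 genes. AKP 2 and AKP 3, with Ptch 1 and Ptch 2, were high for C1q, Trem2, Tyrobp and Aif1. AKP 1 and the 3 NKP libraries were low for the C1q genes and Tyrobp. Csf1r, Cx3cr1 and Tmem119 varied much less, and P2ry12 was lowest in the library where C1q was highest.

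The 3 C1q genes encode the chains of the C1q recognition molecule, made in brain chiefly by microglia. C1qa had 32.5, 84.6 and 62.3 CPM in AKP 1 to 3, 32.8, 32.6 and 33.8 CPM in NKP 1 to 3, and 59.8, 61.4, 46.0 and 37.9 CPM in Ptch 1 to 4. C1qb had 36.4, 102 and 80.0 CPM in AKP, 36.0, 36.5 and 37.5 CPM in NKP, and 63.7, 68.0, 48.5 and 42.6 CPM in Ptch. C1qc had 33.1, 81.0 and 61.8 CPM in AKP, 33.9, 29.2 and 34.2 CPM in NKP, and 59.0, 58.9, 48.1 and 35.9 CPM in Ptch. For each of the 3 chains all NKP libraries lay below all Ptch libraries, AKP 2 and AKP 3 lay above all Ptch libraries, and AKP 1 lay below all Ptch libraries. The NKP libraries were close to each other, with an SD of 0.683 CPM for C1qa, against 26.1 CPM in AKP and 11.3 CPM in Ptch.

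Trem2 is a surface receptor for lipids and cell debris, and Tyrobp (DAP12) is the membrane adaptor through which it signals. Tyrobp had 11.2, 35.4 and 23.4 CPM in AKP 1 to 3, 12.4, 10.8 and 10.2 CPM in NKP 1 to 3, and 21.1, 21.5, 14.6 and 13.9 CPM in Ptch 1 to 4. All 3 NKP libraries were below every Ptch library, and AKP 1 was among the NKP values. Trem2 had 6.82, 20.9 and 14 CPM in AKP, 10.6, 6.25 and 7.56 CPM in NKP, and 11.6, 12.5, 7.89 and 8.62 CPM in Ptch. Here the groups overlapped in every comparison, since NKP 1 stood above Ptch 3 and Ptch 4. Aif1 (Iba1), a calcium-binding protein of the myeloid cytoskeleton, was the least abundant of the 10 in CPM, with 3.37, 6.78 and 5.75 CPM in AKP, 3.43, 1.88 and 2.46 CPM in NKP, and 5.31, 5.89, 4.22 and 3.42 CPM in Ptch. Its NKP and Ptch values overlapped at a single pair of libraries, NKP 1 and Ptch 4, and the lowest of them is 34 reads in NKP 2.

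Csf1r, the receptor for Csf1 and Il34, had 33.5, 43.8 and 46.1 CPM in AKP 1 to 3, 38.6, 35.7 and 41.1 CPM in NKP 1 to 3, and 50.9, 42.0, 38.3 and 40.8 CPM in Ptch 1 to 4. The groups overlapped, and the highest library was 1.52 times the lowest. Cx3cr1, the receptor for the neuronal chemokine Cx3cl1, had 13.7, 17.2 and 19.5 CPM in AKP, 13.7, 13.7 and 14.2 CPM in NKP, and 18.5, 15.8, 16.0 and 20.9 CPM in Ptch. Its NKP libraries lay below all Ptch libraries, and its highest library was Ptch 4. Its annotated span, introns included, overlaps several other genes, among them Csrnp1 on the same strand. Overlap of exons was not examined, so its counts are less certain.

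Tmem119 is a membrane protein used as a marker that separates microglia from other macrophages. It had 10.8, 15.3 and 13 CPM in AKP 1 to 3, 8.91, 11.7 and 10.3 CPM in NKP 1 to 3, and 10.3, 11.3, 11.1 and 12 CPM in Ptch 1 to 4, and the groups overlapped. P2ry12, the ADP receptor that steers microglial processes to injury, had 11.9, 5.77 and 10.7 CPM in AKP, 8.67, 11.8 and 10.3 CPM in NKP, and 7.16, 7.96, 13.2 and 12.7 CPM in Ptch. Its lowest values were in AKP 2, Ptch 1 and Ptch 2, which are 3 of the 4 libraries with the highest C1qa. The span of P2ry12 lies wholly inside that of Med12l on the opposite strand (46600 bases, introns included). Overlap of their exons was not examined. The library kit did not mark strand, so reads from any bases that both transcripts share cannot be told apart.

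**Figure D1:**
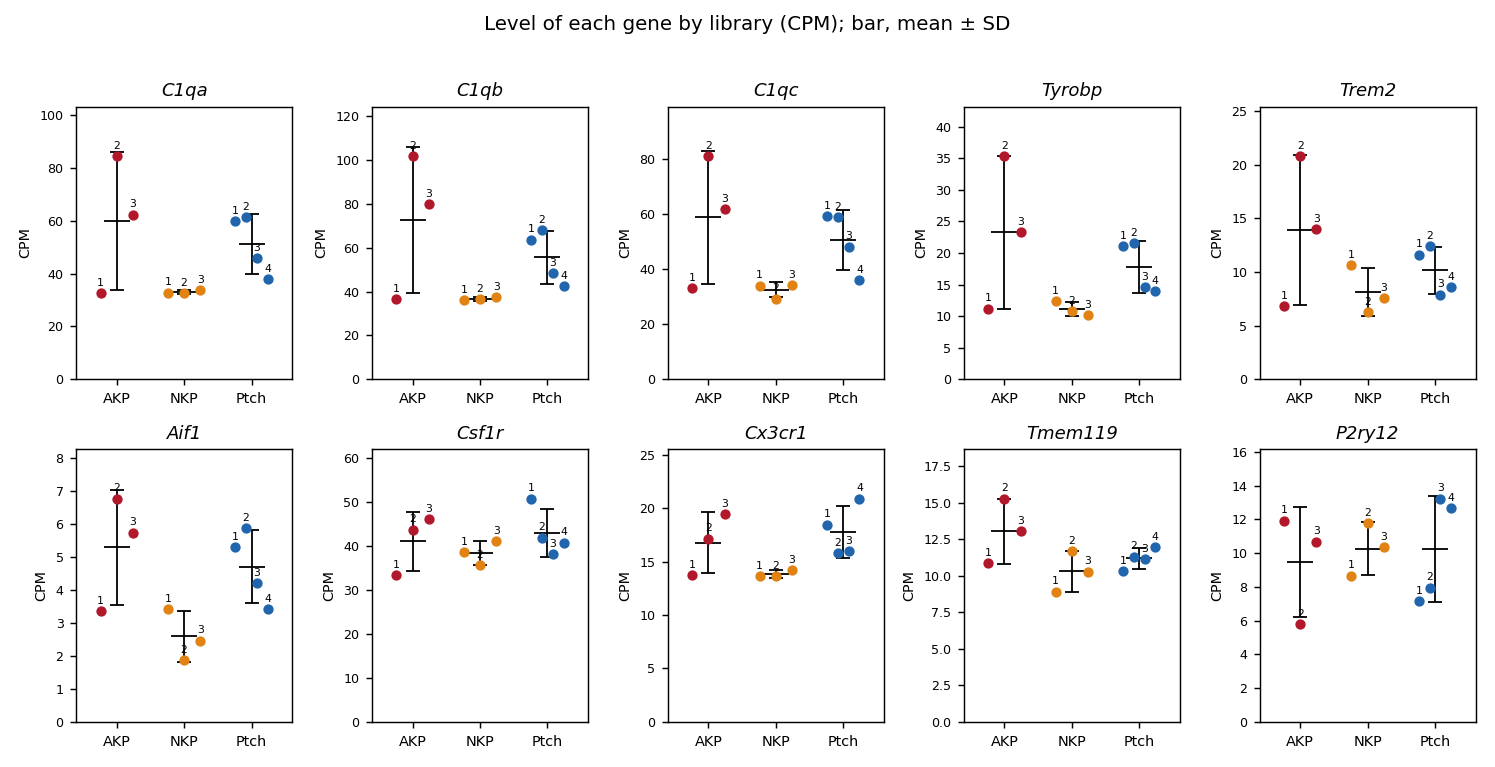
Level of each of the 10 genes in CPM (vertical axes, from 0) in AKP, NKP and Ptch. Each point is 1 library, numbered by its replicate, and bars give the mean ± SD (n = 3, 3 and 4). The 3 NKP libraries sit between 32.6 and 33.8 CPM for C1qa, whereas AKP runs from 32.5 to 84.6 CPM.

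Set on a scale that allows comparison between genes (CPM per kilobase of the longest annotated transcript), the C1q chains led the order. The means over the 10 libraries were 50.7 for C1qb, 46.5 for C1qa, 39.5 for C1qc and 29.2 for Tyrobp, and the ranges of these neighbours overlapped. Csf1r followed at 8.74 CPM per kilobase, and its range of 7.12 to 10.8 overlapped neither Tyrobp above it nor Tmem119 below it. It did overlap the range of Aif1, further down, which reached 7.75 CPM per kilobase. Tmem119 (5.12), Aif1 (4.86), P2ry12 (4.27), Cx3cr1 (3.63) and Trem2 (2.23 CPM per kilobase) closed the order with overlapping ranges between neighbours. The place of Trem2 rests on its longest transcript of 4784 bases, and the counts do not show which transcript its reads came from. The coefficient of variation over the 10 libraries was 36.0% to 45.6% for the C1q genes, Tyrobp, Trem2 and Aif1, 25.1% for P2ry12, and 12.3% to 16.1% for Csf1r, Tmem119 and Cx3cr1.

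AKP against Ptch asked whether the tumours with the Atoh1 driver differed from cerebellum in these genes. None of the 10 passed the threshold of an adjusted p below 0.05 in edgeR's quasi-likelihood test with Benjamini-Hochberg adjustment over all genes, where 5.68% of all genes did (3.38% higher and 2.3% lower). None of the 10 had an unadjusted p below 0.05, as had 25.1% of all genes, and none had groups without overlap, as had 12.9% of all genes with AKP higher and 12% with AKP lower. DESeq2 called none of those it could adjust, against 8.85% of all genes higher and 7.34% lower. The largest log2 fold changes were 0.46 ± 0.33 (SE) for Trem2, 0.39 ± 0.31 for C1qb and 0.39 ± 0.33 for Tyrobp. C1qa was at 0.23, C1qc at 0.22, Tmem119 at 0.22 and Aif1 at 0.17, while Csf1r (-0.06), Cx3cr1 (-0.08) and P2ry12 (-0.12) were slightly below 0. The median of the 10 was 0.22, against -0.02 for all genes tested.

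Single libraries decided these values. Without AKP 1, C1qb and Tyrobp passed in edgeR at log2 fold changes of 0.71 (adjusted p = 0.0249) and 0.73 (adjusted p = 0.0466), where 4.88% of all genes were called higher, and the median of the 10 genes was 0.46. Without AKP 2 the median was -0.04, and C1qa (-0.11), C1qc (-0.09), Tyrobp (-0.04) and Aif1 (-0.04) were below 0. With offsets that remove each library's trend with transcript length and GC content, the median was -0.00, with C1qb at 0.12 and Trem2 at 0.58. These offsets used the longest annotated transcript of each gene, which for Trem2 may not be the one counted. The median was 0.48 without Ptch 1 and Ptch 2, 0.46 without NKP 1, NKP 2 and AKP 1 (the libraries lowest in mitosis genes), and 0.21 without the 4 libraries against their sex label.

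NKP against Ptch asked the same of the tumours with the Nestin driver. None of the 10 genes passed in edgeR (adjusted p from 0.218 to 0.999), as none of all 15617 genes did (0%), and DESeq2 called none of the 10, against 0.506% of all genes higher and 2.09% lower. The values nevertheless lay to one side: 9 of the 10 log2 fold changes were below 0, as were 47.7% of all genes, and the median was -0.48, against 0.01 for all genes tested. Aif1 was lowest at -0.88 ± 0.30 (SE), followed by Tyrobp at -0.68 ± 0.33, C1qc at -0.64 ± 0.28, C1qa at -0.63 ± 0.29 and C1qb at -0.60 ± 0.31. Cx3cr1 stood at -0.36 ± 0.15, Trem2 at -0.32, Csf1r at -0.16, Tmem119 at -0.12 and P2ry12 at 0.00.

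In 5 of the 10 genes (C1qa, C1qb, C1qc, Tyrobp and Cx3cr1) every NKP library lay below every Ptch library, as for 8.95% of all genes. An unadjusted p below 0.05 with a lower level was found for 3 (Aif1, Cx3cr1 and C1qc), as for 10.2% of all genes. All NKP libraries are from 4 months of age, as are Ptch 1 and Ptch 2, the Ptch libraries with the highest C1q. Among the libraries of 4 months alone, 5 genes were lower in NKP in edgeR, where 9.27% of all genes were called lower. They were C1qa at -0.87 (adjusted p = 0.000129), C1qb at -0.84 (adjusted p = 0.000136), C1qc at -0.86 (adjusted p = 0.000254), Tyrobp at -0.94 (adjusted p = 0.00101) and Aif1 at -1.13 (adjusted p = 0.0184). Over all 24 alternatives the adjusted p of each of these 5 genes reached 0.990. The Ptch side at 4 months is Ptch 1 and Ptch 2 alone. Their counts were closer to each other (chi-square per degree of freedom 3.46) than those of the NKP libraries (15.1 to 16.6). If Ptch 1 and Ptch 2 are not separate animals, the adjusted p at 4 months are too small. Ptch 1 and Ptch 2 are also the libraries with the highest mitosis sums, and without them the median of the 10 genes was -0.34 and none passed, so age and that feature of the pair cannot be told apart. The median was -0.48 without the libraries lowest in mitosis genes, which leaves NKP 3 as the only NKP library, assumed to vary like the others, and -0.51 without the 4 libraries against their sex label.

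AKP against NKP compared tumours with the Atoh1 driver and tumours with the Nestin driver. The groups also differ in age, since AKP 1 and AKP 2 are from 2 months and the other libraries of both groups from 4 months. Over all their libraries, driver and age cannot be told apart. None of the 10 genes passed in edgeR (adjusted p from 0.228 upwards), where 0.0064% of all genes (1 gene) did. Of the 10, 6 had an unadjusted p below 0.05 with a higher level in AKP (C1qa, C1qb, C1qc, Tyrobp, Trem2 and Aif1), as had 8.82% of all genes. Their log2 fold changes were 1.07 ± 0.35 (SE) for Tyrobp, 1.05 ± 0.32 for Aif1, 0.99 ± 0.33 for C1qb, 0.86 ± 0.31 for C1qa, 0.86 ± 0.30 for C1qc and 0.78 ± 0.35 for Trem2. Tmem119 (0.34), Cx3cr1 (0.28) and Csf1r (0.10) were closer to 0 and P2ry12 was at -0.12. The median of the 10 was 0.82, against -0.01 for all genes tested.

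None of the 10 genes had groups without overlap, as had 6.69% of all genes with AKP higher and 9.52% with AKP lower. For the 6 genes just named AKP 1 lay below the highest NKP library, while AKP 2 and AKP 3 lay above all NKP libraries. Without AKP 1, all 6 of those genes passed in edgeR, where 4.38% of all genes were called higher. Their adjusted p then ran from 0.00470 for C1qb at 1.31 to 0.0244 for Trem2 at 1.11, and over all 24 alternatives it reached 0.860 for C1qb. Without AKP 2 the median of the 10 genes was 0.45, with C1qa at 0.52, C1qb at 0.67, C1qc at 0.55, Tyrobp at 0.64 and Trem2 at 0.37, and none passed. DESeq2 called C1qa (adjusted p = 0.0489), C1qb (adjusted p = 0.0394) and C1qc (adjusted p = 0.0481) higher in AKP, where it called 1.84% of the genes it could adjust. At 4 months of age, where AKP 3 is the only AKP library and is assumed to vary like the others, edgeR called C1qa (0.91), C1qb (1.12), C1qc (0.93) and Tyrobp (1.07) higher in AKP, against 1.92% of all genes. The median of the 10 genes was 1.08 without the libraries lowest in mitosis genes, again with NKP 3 as the only NKP library, and 0.79 without the 4 libraries against their sex label. The comparisons with Ptch share the same 4 Ptch libraries and the fit is joint, so the 3 sets of fold changes are not independent of each other.

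**Figure D2:**
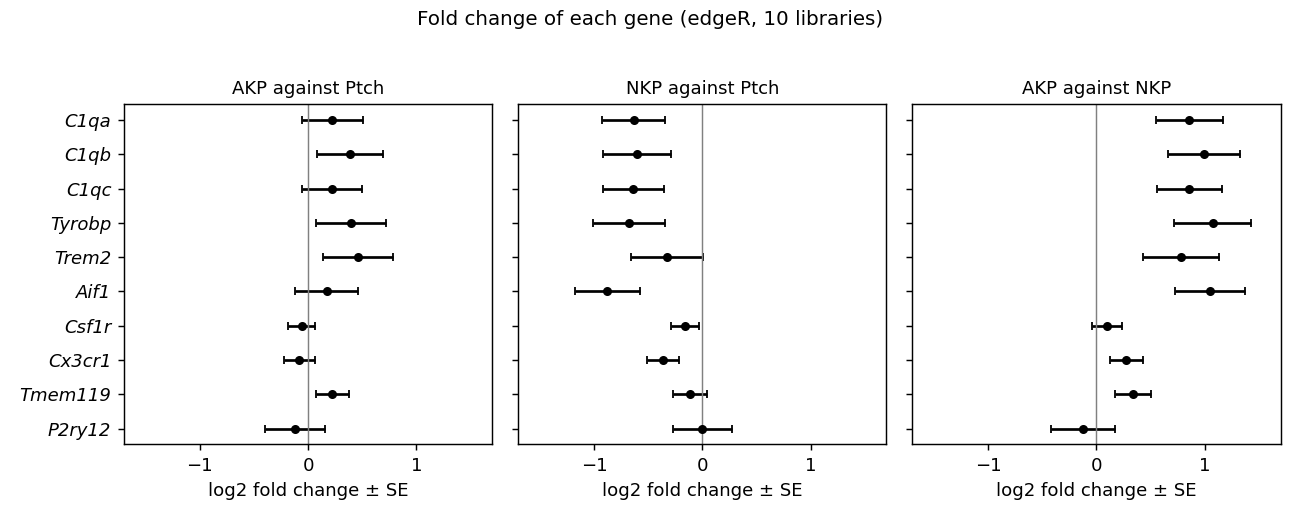
Log2 fold change of each gene in AKP against Ptch, NKP against Ptch and AKP against NKP (horizontal axes), with SE from edgeR over 10 libraries. The 3 C1q genes sit between -0.64 and -0.60 in NKP against Ptch and between 0.86 and 0.99 in AKP against NKP, while Csf1r and P2ry12 sit near 0 in each comparison.

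The libraries with high C1q were the same for most of the 10 genes. AKP 2 was the highest of the 10 libraries for 7 genes and the lowest for P2ry12. The 4 highest libraries were AKP 2, AKP 3, Ptch 1 and Ptch 2 for 7 genes (C1qa, C1qb, C1qc, Trem2, Tyrobp, Aif1 and Csf1r), and the same held for 8.36% of all genes tested (1306 genes). This set of libraries was picked after their values were seen, so the count is a description with no test. The summed level of the 10 genes was 193, 413 and 337 CPM in AKP 1 to 3, 199, 190.0 and 202 CPM in NKP 1 to 3, and 307, 305, 248 and 229 CPM in Ptch 1 to 4.

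**Figure D3:**
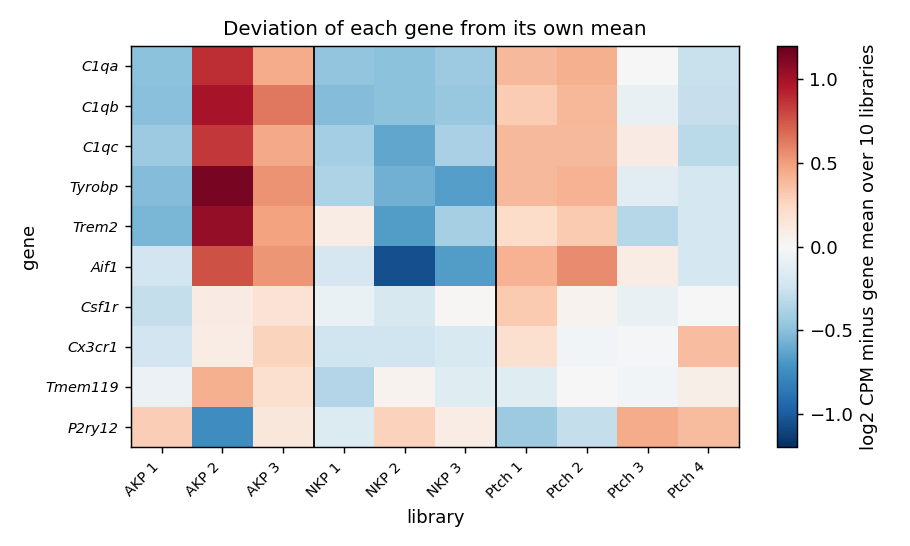
Deviation of each gene (rows) from its own mean log2 CPM in each library (columns, AKP, NKP, Ptch from left to right). Red marks levels above the mean and blue below it. C1q, Tyrobp, Trem2 and Aif1 share the red columns AKP 2, AKP 3, Ptch 1 and Ptch 2, and P2ry12 is blue in AKP 2, Ptch 1 and Ptch 2.

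Other measures moved with that set of libraries. The mitosis sum was highest in the same 4 libraries, and all 8 mitosis genes had them as their 4 highest, as had 3 of the 6 granule neuron precursor genes (Barhl1, Gli1 and Mycn). The 6 mature granule neuron genes ran the other way. They summed to 3235, 1833 and 2218 CPM in AKP 1 to 3, 2899 to 3301 CPM in NKP, and 2378, 2339, 2879.7 and 2879 CPM in Ptch 1 to 4, lowest in the same 4 libraries. Short transcripts were favoured over long ones in AKP 2 and AKP 3: the median deviation of genes of at most 1500 bases minus that of genes of at least 4000 bases was 0.46 in AKP 2 and 0.25 in AKP 3 on the log2 scale. It was 0.19 in AKP 1 and 0.17 in NKP 1, however, and -0.14 and -0.07 in Ptch 1 and Ptch 2, so it did not follow the set in Ptch. The longest annotated transcripts of the C1q genes, Tyrobp and Aif1 have 597 to 1203 bases. Those of Csf1r, Cx3cr1 and Trem2 have 4493 to 4784 bases. Trem2 was high in the same libraries as the short genes. The counts do not show whether its reads came from its longest transcript of 4784 bases or from a shorter one. The part of mitotic activity, of granule neuron content and of transcript length in the differences between libraries was not tested beyond the length and GC correction given above.

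Ratios within a library do not depend on its total. The chains of C1q kept a near constant proportion, with C1qb at 1.12, 1.21 and 1.28 times the count of C1qa in AKP 1 to 3, 1.10 to 1.12 times in NKP and 1.05 to 1.12 times in Ptch. C1qc over C1qa ranged from 0.957 to 1.02 in AKP, from 0.896 to 1.03 in NKP and from 0.946 to 1.05 in Ptch. C1qa over Csf1r, in contrast, was 0.973, 1.93 and 1.35 in the AKP libraries (1 to 3), 0.850, 0.912 and 0.823 in the NKP libraries, and 1.18, 1.46, 1.2 and 0.929 in Ptch 1 to 4. All NKP ratios were below all AKP and all Ptch ratios, though NKP 2 was close to Ptch 4. How often other pairs of genes separate in this way was not counted. C1qa (1040 bases) and Csf1r (4701 bases) differ in transcript length, and the part of the libraries' length trend in this ratio was not tested. C1qa over P2ry12 was 2.73, 14.7 and 5.83 in AKP, 3.78, 2.77 and 3.27 in NKP, and 8.35, 7.72, 3.47 and 2.99 in Ptch. It was highest in AKP 2, Ptch 1 and Ptch 2 and overlapped between all groups. The 3 C1q genes together made up 52.8%, 64.8% and 60.7% of the counts of the 10 genes in AKP 1 to 3, 51.6% to 52.3% in NKP and 50.9% to 61.7% in Ptch. The C1q genes and Csf1r thus differed unequally between libraries.

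**Figure D4:**
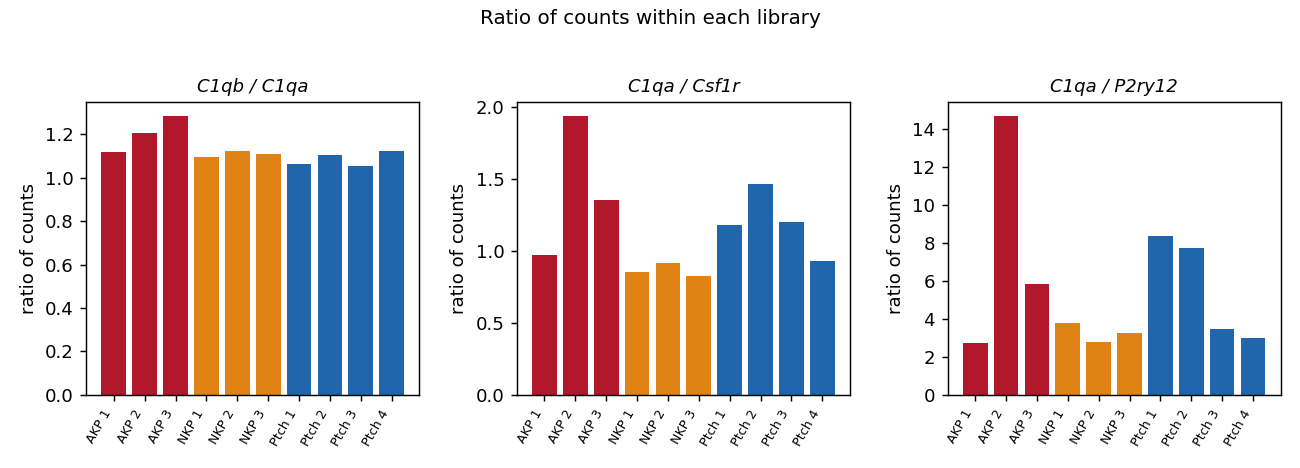
Ratio of counts within each library for C1qb over C1qa, C1qa over Csf1r and C1qa over P2ry12 (vertical axes, from 0; bars are single libraries in the order AKP, NKP, Ptch). C1qb over C1qa stays between 1.05 and 1.28, while C1qa over P2ry12 runs from 2.73 to 14.7.

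The transcription factors of the lineage were measured at low levels. Spi1, which drives myeloid fate, had 2.71, 5.41 and 3.98 CPM in AKP 1 to 3, 2.78, 2.54 and 3.12 CPM in NKP 1 to 3, and 4.16, 3.67, 2.80 and 2.73 CPM in Ptch 1 to 4, and it was chosen for naming after its values were seen. The groups overlapped in each comparison. Irf8, a partner of Spi1, had 3.86, 4.98 and 5.45 CPM in AKP and 2.79 to 2.98 CPM in NKP, against 3.36 to 6.16 CPM in Ptch. It did not pass in edgeR in any comparison (-0.78 for NKP against Ptch, adjusted p = 0.218; 0.73 for AKP against NKP, adjusted p = 0.230). Of the 6 factors examined, 1 passed, Runx1, which acts in blood formation and early microglia, called lower in AKP than in Ptch, as were 2.3% of all genes. Runx1 fell to 0.0822, 0.216 and 0.442 CPM in AKP 1 to 3, against 0.770 to 1.27 CPM in Ptch (log2 fold change -2.04, edgeR adjusted p = 0.0397). Those levels rest on a handful of reads, and the call was lost on leaving out any AKP library, any Ptch library or NKP 2 (adjusted p 0.0561 to 0.161).

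Of 10 other microglia genes, none passed in any comparison. In NKP against Ptch, the log2 fold change was above 0 for 4 and below 0 for 6 (median -0.08). Of the 10, 2 genes, Fcrls among them, had AKP 2, AKP 3, Ptch 1 and Ptch 2 as their 4 highest libraries. Fcrls, a receptor-like gene that marks mouse microglia, had 12.7, 28.4 and 28.7 CPM in AKP, 12 to 12.9 CPM in NKP and 17.2 to 30.0 CPM in Ptch. All its NKP libraries lay below Ptch, as for 8.95% of all genes, at a log2 fold change of -0.90 ± 0.30 (SE) with an adjusted p of 0.218 in edgeR. Slc2a5, a fructose transporter of microglia, showed the same order at low level, with 0.409 to 0.657 CPM in NKP against 1.12 to 1.77 CPM in Ptch (-1.40, adjusted p = 0.218). Siglech, a lectin of microglia, and P2ry13, a nucleotide receptor, were chosen for naming after their values were seen and stood at 0.13 and 0.18 in NKP against Ptch, with overlap.

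The 12 pan-myeloid genes, shared by microglia, macrophages and monocytes, summed to 108, 261 and 234 CPM in AKP 1 to 3, 113, 121 and 123 CPM in NKP 1 to 3, and 211, 197, 152 and 140 CPM in Ptch 1 to 4. None passed in any comparison, and 8 of the 12 had AKP 2, AKP 3, Ptch 1 and Ptch 2 as their 4 highest libraries, as had 8.36% of all genes. The same held for 6 of the 12 genes of activated microglia and 3 of the 6 transcription factors, but for 1 of the 8 genes of border macrophages and 0 of the 9 ligands and signalling partners tested. Cd68, a lysosomal protein of phagocytes, was at 3.87 to 7.83 CPM in NKP against 7.58 to 18.5 CPM in Ptch (-1.18 ± 0.42, SE, edgeR adjusted p = 0.228). Fcer1g, the adaptor of Fc receptors, was at 6.08, 13.9 and 10.8 CPM in AKP against 4.50 to 5.69 CPM in NKP (1.03 ± 0.33, SE, adjusted p = 0.228). Lyz2, the lysozyme of macrophages, was named after its values were seen, with 14.8, 91.9 and 73.6 CPM in AKP, 14.9, 21.8 and 22.5 CPM in NKP, and 57.9, 50.2, 38.5 and 31.6 CPM in Ptch.

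Among 12 genes of activated microglia, 1 passed, Spp1 (osteopontin), a secreted phosphoprotein, called higher in AKP than in Ptch, as were 3.38% of all genes. It rose to 63.3, 97.5 and 93.7 CPM in AKP 1 to 3, against 20.9, 18.4, 33.4 and 35.3 CPM in Ptch 1 to 4 (log2 fold change 1.65 ± 0.27, SE, edgeR adjusted p = 0.0211). In NKP it had 55.7, 68.3 and 42.2 CPM, also above all Ptch libraries, as for 1087 of all 15617 genes tested (1.03 ± 0.27, SE, adjusted p = 0.218). Its call in AKP was lost without AKP 2, AKP 3, Ptch 1 or Ptch 2 (adjusted p 0.0606 to 0.115), with adjusted p from 1.88e-08 to 0.406 over all alternatives. Spp1 did not share the order of the C1q genes: Ptch 1 and Ptch 2 were its lowest libraries, and it is also made by cells outside the myeloid lineage. Itgax (CD11c), an integrin, stood at 0 to 0.111 CPM in NKP against 0.380 to 1.39 CPM in Ptch (-3.28 ± 0.87, SE, adjusted p = 0.218). Clec7a, a receptor for fungal glucans, had 2.88, 6.06 and 5.08 CPM in AKP against 0.327, 1.16 and 2.03 CPM in NKP (1.94 ± 0.47, SE, adjusted p = 0.228).

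Cst7 and Gpnmb, both raised by activated mouse microglia, were named after their values were seen. Cst7, a cystatin, had 0.0822, 4.98 and 5.38 CPM in AKP 1 to 3, 0, 0.166 and 0.821 CPM in NKP 1 to 3, and 7.23, 6.04, 2.39 and 1.71 CPM in Ptch 1 to 4. Gpnmb, a membrane glycoprotein, had 1.40, 24.2 and 17.3 CPM in AKP, 1.47, 2.27 and 6.35 CPM in NKP, and 16.6, 13.8, 11.7 and 11.2 CPM in Ptch. For both genes AKP 1 stood with the NKP libraries, all NKP libraries lay below all Ptch libraries (as for 8.95% of all genes), and no comparison passed.

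**Figure D5:**
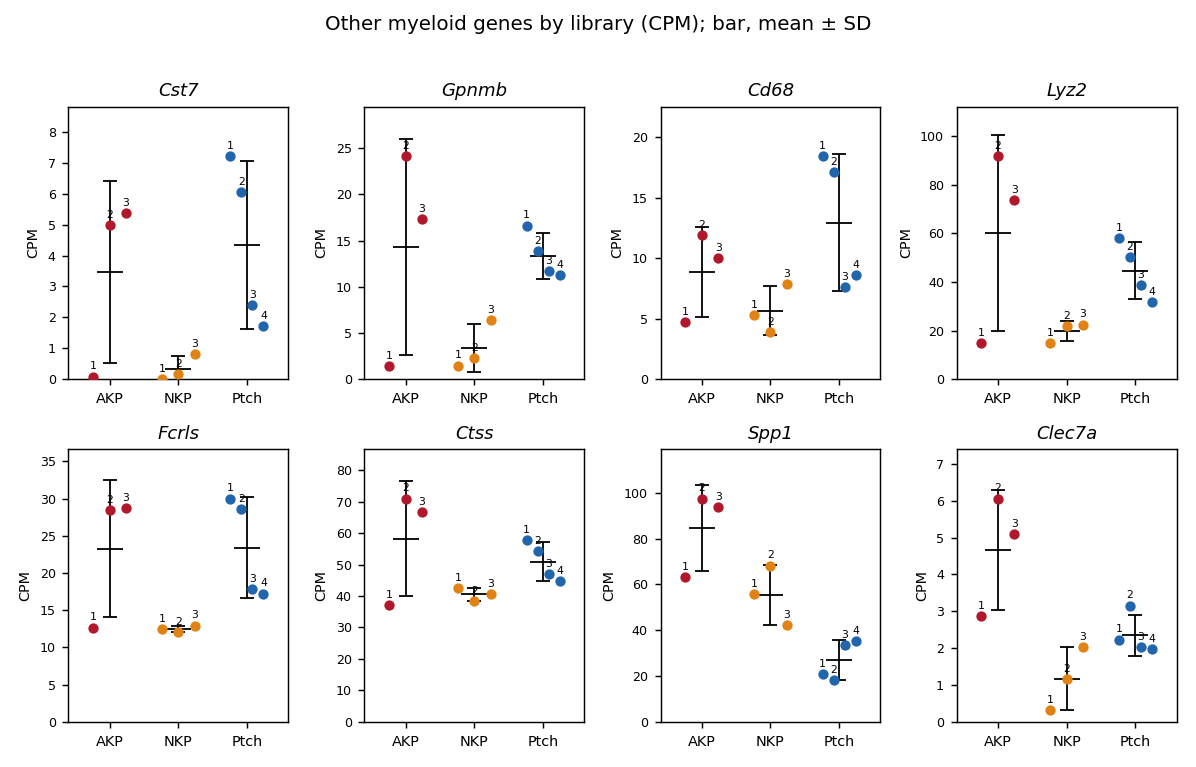
Level of 8 other myeloid genes in CPM (vertical axes, from 0) in AKP, NKP and Ptch, with 1 point per library and bars for the mean ± SD (n = 3, 3 and 4). Spp1 lies above all Ptch libraries in AKP and NKP, whereas Lyz2, Fcrls, Gpnmb and Cst7 are low in AKP 1 and NKP. The 8 genes were picked for display after their values were seen.

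Macrophages of the meninges and vessels were followed through 8 genes, of which none passed. In NKP against Ptch the log2 fold change was above 0 for 6 and below 0 for 2 (median 0.39). They summed to 21.0 to 34.3 CPM in AKP, 20.2 to 31.9 CPM in NKP and 23.5 to 27.9 CPM in Ptch, with overlap. Ms4a7, a membrane protein of these macrophages, had 0.658, 3.75 and 2.87 CPM in AKP, 0.409 to 0.995 CPM in NKP and 2.34 to 3.31 CPM in Ptch (-1.85 ± 0.49, SE, edgeR adjusted p = 0.218 for NKP against Ptch). F13a1, a clotting factor chain made by macrophages, ran the other way, at 2.88 to 3.91 CPM in AKP and 1.75 to 5.97 CPM in NKP, against 1.53 to 2.08 CPM in Ptch. Its AKP libraries were all above Ptch, as for 12.9% of all genes (1.06 ± 0.37, SE, adjusted p = 0.0943). Cd163, a scavenger receptor for haemoglobin, had 1.64 to 1.93 CPM in NKP against 0.697 to 1.39 CPM in Ptch (0.91 ± 0.33, SE, adjusted p = 0.222), and was named after its values were seen, as was Lyve1. Lyve1, a hyaluronan receptor, had 0.981 to 3.04 CPM in NKP against 0.847 to 0.967 CPM in Ptch (0.90 ± 0.42, SE, adjusted p = 0.295). For both genes every NKP library lay above every Ptch library, as for 1087 of all 15617 genes tested.

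The receptors' ligands did not pass either. Of 10 ligands and signalling partners, 9 were tested and none passed in any comparison. Il34, the neuronal ligand of Csf1r, had 8.06 to 14.3 CPM in AKP, 8.16 to 13.5 CPM in NKP and 6.85 to 9.57 CPM in Ptch, with log2 fold changes against Ptch of 0.46 ± 0.22 for AKP (SE, edgeR adjusted p = 0.215) and 0.35 ± 0.22 for NKP (adjusted p = 0.429). Syk, the kinase recruited by Tyrobp, was at 1.55 to 1.60 CPM in NKP against 1.39 to 4.31 CPM in Ptch (-0.80, adjusted p = 0.327). Of 10 other complement genes, 8 were tested and none passed. C1ra, a protease that acts with C1q, had 0.491 to 1.31 CPM in NKP against 1.08 to 2.08 CPM in Ptch, with overlap. Serping1, the inhibitor of C1, had 15.5, 25.0 and 31.4 CPM in AKP against 14.6 to 18.9 CPM in NKP (0.51 ± 0.23, SE, adjusted p = 0.284).

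Markers of other blood cells were examined because tumour and cerebellum can hold different amounts of blood. The 11 monocyte and neutrophil genes summed to 4.72 to 6.33 CPM in AKP, 2.57 to 10.4 CPM in NKP and 1.39 to 4.53 CPM in Ptch, and 1 to 5 of them were at 0 in each library. Ccr2, the monocyte chemokine receptor, had 0.822 to 1.11 CPM in AKP, 0.164 to 0.332 CPM in NKP and 0.231 to 0.560 CPM in Ptch. Its AKP libraries lay above all Ptch libraries, as for 12.9% of all genes (edgeR log2 fold change 1.32, adjusted p = 0.0975). They also lay above all NKP libraries, as for 6.69% of all genes (edgeR log2 fold change 1.83, adjusted p = 0.228). The 10 lymphocyte genes summed to 2.24 to 3.12 CPM in AKP, 1.14 to 1.71 CPM in NKP and 1.54 to 3.05 CPM in Ptch, and 2 to 7 were at 0 in each library. The 5 red blood cell genes summed to 1740 to 2232 CPM in AKP, 780.1 to 2483 CPM in NKP and 710.0 to 814 CPM in Ptch. Of the 5, 3 (Hba-a1, Hbb-bs and Alas2) passed as higher in AKP than in Ptch, as did 3.38% of all genes. Those calls were lost in edgeR without AKP 2, AKP 3, Ptch 1 or Ptch 2. Over all 24 alternatives, Hba-a1 and Hbb-bs each passed in 8 and Alas2 in 14. AKP 1 (2032 CPM) and NKP 1 (2483 CPM) were high for red blood cell genes and low for C1q. AKP 2 (2232 CPM) and AKP 3 (1740 CPM) were high for both. Ptch 1 (710.0 CPM) and Ptch 2 (742 CPM) were low for red blood cell genes and high for C1q. The part of blood in the differences was not tested. Among the cell types of the tissue itself, 1 of 6 oligodendrocyte genes (Mobp, 0.56, edgeR adjusted p = 0.0382) and 1 of 6 endothelial genes (Ly6c1, 0.69, adjusted p = 0.0209) passed as higher in AKP than in Ptch, against 3.38% of all genes. These calls too were lost without AKP 2, AKP 3, Ptch 1 or Ptch 2. Over all 24 alternatives, Mobp passed in 11 and Ly6c1 in 15. None of the 8 mitosis, 6 granule neuron precursor, 6 mature granule neuron and 6 astrocyte genes passed in any comparison in edgeR.

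Outside the 10 genes themselves, the genes whose profile over the 10 libraries was most like the mean of the 10 genes were named by a rule of likeness (Pearson's r of log2 CPM, 11788 genes with at least 5 CPM on average). Among the 8 highest were Tmsb10 (r = 0.988), Gm17750, Prmt2, Ctss, Rack1, Stmn1 and Psme1 (r = 0.976). Of these, Ctss, the lysosomal protease cathepsin S, is known as a myeloid gene and is one of the 12 pan-myeloid genes above. Tmsb10 and Stmn1, regulators of the cytoskeleton that are high in immature neurons, and Rack1, a scaffold protein of the ribosome, are not. Tmsb10 had 126, 411 and 317 CPM in AKP 1 to 3, 135, 94.5 and 127 CPM in NKP 1 to 3, and 274, 296, 177 and 160 CPM in Ptch 1 to 4. The points share library, depth and transcript length trend, so the likeness describes these 10 libraries, and none of the 8 passed in edgeR in any comparison.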

How the data were processed

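Poly-A RNA of mouse cerebellum or medulloblastoma was sequenced from TruSeq v2 libraries, which do not mark strand, per the labels' protocols. Trim Galore, STAR and RSEM with build GRCm38 are named in the submitters' processing notes, and their versions are not given there. The authors deposited a table of gene symbols by libraries. Its values were taken to be RSEM expected counts rounded by the authors, because they are whole and the library totals differ. Rounding them again changed nothing.

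Libraries were grouped by label. Genes were kept by filterByExpr, which left 15617 of 39769, and CPM used TMM-scaled library sizes. Groups were compared in 1 fit of 10 libraries without covariates by the quasi-likelihood F test of edgeR 4.0.16 (R 4.3.3), with Benjamini-Hochberg adjustment over all genes tested and a threshold of 0.05. SE is the absolute log2 fold change divided by the square root of F. Alternatives were DESeq2 1.42.0, other scalings and filters, covariates, age-matched libraries, libraries left out, a replicate block, and lowess offsets (span 0.3, prior count 1) for transcript length and GC content. Lengths came from GENCODE annotation of GRCm38. The fit was tested on simulated data.

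The 10 genes and the 17 lists were chosen with earlier results of these data known. By rule, up to 2 genes with the smallest p of each list and comparison, and the 8 genes most like the mean profile, could be named; exceptions are marked. Some genes that the rule picked are not reported here. Intervals for single libraries were not computed, and the counts cover sampling of reads only as far as replicates show it. No 2 libraries of a group agreed within counting noise (chi-square per degree of freedom at least 3.28). The Ptch libraries formed close pairs, Ptch 1 with Ptch 2 (3.46) and Ptch 3 with Ptch 4 (3.28), against 25.8 to 28.8 across pairs. Each pair shares its age label. Y-linked genes summed to 0.385 and 0.465 CPM in Ptch 1 and Ptch 2, against 99.15 and 96.9 CPM in Ptch 3 and Ptch 4. Should a pair not be separate animals, comparisons with Ptch rest on fewer independent libraries than counted.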

Additional observations from a re-analysis of the deposited data

Results flagged for a closer look

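Groups of 4 libraries were searched for a library far from the others, which Ptch alone allows. Of 39 quantities examined in Ptch, 2 stood out, and chance flags about 1 group in 20. Both were in Ptch 2 and neither is one of the 10 genes. The summed level of the lymphocyte genes was 3.05 CPM there, far above the other Ptch libraries (1.54 to 1.77 CPM). The summed level of the granule neuron precursor genes was 994 CPM in Ptch 2, likewise above the other 3. None of the 10 microglia and macrophage genes had such a library in Ptch.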

How the results depend on the processing

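Each comparison was recomputed under 24 alternatives. The count of the 10 genes called in edgeR was 0 in all but a few: 5 in NKP against Ptch among age-matched libraries, 3 in AKP against NKP with DESeq2 and 4 among age-matched libraries, and, over the libraries left out in turn, 0 to 2 in AKP against Ptch and 0 to 6 in AKP against NKP, the highest counts each without AKP 1. The median log2 fold change of the 10 genes ran from -0.71 to -0.34 in NKP against Ptch, from 0.45 to 1.12 in AKP against NKP, and from -0.04 to 0.48 in AKP against Ptch. Genes called from the other lists numbered 0 in NKP against Ptch, but 16 with DESeq2, 17 with age as a covariate and 42 among age-matched libraries. In AKP against Ptch they numbered 7, but 14 with DESeq2, 13 in a fit of only the groups compared, 3 with sex label as a covariate, 21 without NKP 1, NKP 2 and AKP 1, 0 to 14 over the libraries left out in turn, and 0 with age-matched libraries, the length and GC correction, or without Ptch 1 and Ptch 2 or the 4 libraries against their sex label. In AKP against NKP they numbered 0, but 9 among age-matched libraries, 3 without NKP 1, NKP 2 and AKP 1 (which leaves NKP 3 alone in its group), and 0 to 23 over the libraries left out in turn.

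Signs turned where values were near 0. P2ry12 in NKP against Ptch turned to -0.011 when the 4 libraries against their sex label were left out, -0.34 without Ptch 1 and Ptch 2 and -0.13 with the length and GC correction, and ran from -0.14 to 0.15 over the libraries left out in turn. Over the libraries left out, P2ry12 ran from -0.32 to 0.14 in AKP against Ptch and from -0.32 to 0.14 in AKP against NKP, and it was 0.050 in AKP against NKP among age-matched libraries. In AKP against Ptch, Csf1r turned to 0.064 without Ptch 1 and Ptch 2, 0.069 without NKP 1, NKP 2 and AKP 1 and 0.074 with the length and GC correction, and Cx3cr1 to 0.044 and 0.019 under the last 2. That correction turned Aif1 to -0.18, C1qa to -0.052, C1qc to -0.024 and Tyrobp to -0.043. Over the libraries left out, the ranges in AKP against Ptch were -0.15 to 0.067 for Csf1r, -0.20 to 0.043 for Cx3cr1, -0.042 to 0.41 for Aif1, -0.11 to 0.52 for C1qa, -0.086 to 0.50 for C1qc and -0.037 to 0.73 for Tyrobp. Outside the 10 genes, Il34 in NKP against Ptch turned to -0.031 and S100a8 to -0.65 without NKP 1, NKP 2 and AKP 1, and S100a8 ran from -0.067 to 1.94 over the libraries left out. In AKP against NKP, S100a8 turned to -0.98 with age as a covariate, -0.41 among age-matched libraries and -0.011 with the length and GC correction, which turned Kmt2d to 0.10, and S100a8 ran from -0.13 to 1.46 over the libraries left out. Where no cause is given, the cause was not tested.

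The replicate numbers do not pair the libraries: correlations of same-numbered deviations ran from -0.33 to 0.34. With a replicate block, 0 of the 10 genes were called in each comparison, 0 genes of the other lists in AKP against Ptch, and P2ry12 there turned to 0.0088. Aif1, Trem2, Tmem119 and P2ry12 are low in counts, which limits what differences could be seen.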
